A study of Mus musculus with 2 samples.

Results

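In mIMCD3 cells given the hormone FGF23, 10 genes that damp signalling through the MAP kinase ERK were followed. They were taken by their names on the array, among its 34650 gene names, from all spots that were not controls. They were 4 dual-specificity phosphatase genes (Dusp4, Dusp5, Dusp6 and Dusp7), 3 Sprouty genes (Spry1, Spry2 and Spry4), 2 Spred genes (Spred1 and Spred2) and Il17rd. The 10 genes had 13 probes among 55681, each printed as 1 spot. Of these, 12 probes, at least 1 per gene, exceeded background clearly on both arrays in at least 1 condition and are called measured.

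mIMCD3 is an established mouse line of epithelial cells from the inner medulla's collecting ducts. The stimulated cells received 10 ng/mL FGF23 for 4 h, and the unstimulated cells received none; the line was grown in serum-containing medium. Both RNAs were hybridised together on each of 2 two-colour arrays, with FGF23 RNA in Cy3 on array 1 and in Cy5 on array 2. Which way a ratio points depends on these dye labels alone. Nothing in the labels says that the arrays came from separate cultures, so the spread between the 2 arrays may be technical. The p-values rest on that spread, mostly as a value shared by all probes. In a dye swap it also holds any dye effect of a probe.

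FGF receptors signal through Ras, Raf and MEK to ERK, and active ERK switches on genes for its own inhibitors. Dual-specificity MAP kinase phosphatases remove the activating phosphates from ERK, in the nucleus (Dusp4 and Dusp5) or the cytoplasm (Dusp6 and Dusp7). Sprouty and Spred proteins act higher up, between the receptor and Raf, and Il17rd, also called Sef, is a membrane protein that restrains FGF and ERK signalling. Transcripts of several of these genes, Dusp6 and the Sprouty genes among them, are widely used as readouts of FGF activity. FGF23 normally needs the co-receptor klotho to signal at physiological concentrations.

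The probes that the results turn on are shown by a stretch of 30 of their 60 bases, 5′ to 3′, as printed in the scanner files, with positions of the whole probe on mouse build mm9. The Dusp6 and Spry1 probes gave signals far above background, the Dusp5 probe had the lowest ratio and the Il17rd probe the highest, and the Spred1 probes read 3 separate places. In the Dusp7 pair, capitals mark the 15 bases that both probes hold.
Dusp6 (A_51_P502614, bases 1 to 30, chr10:98729985-98730044, plus strand): catttggtggatgcaacaggttgagaggaa
Spry1 (A_55_P1952235, bases 1 to 30, chr3:37543403-37543462, plus strand): ctcatgtctgaatataacatatcactactt
Dusp5 (A_55_P2063237, bases 1 to 30, chr19:53615682-53615741, plus strand): tacagacactgagccctgatatgcagggca
Il17rd (A_51_P253732, bases 1 to 30, chr14:27920311-27920370, plus strand): atagcactgtgccatatttttacattggcg
Spred1 (A_55_P2079430, bases 1 to 30, chr2:117005906-117005965, plus strand): cattaatattttcagtttgtttaaccactt
Spred1 (A_55_P2079425, bases 1 to 30, chr2:117004952-117005011, plus strand): gtgatatgctccagcaaacaggttaaaaat
Spred1 (A_55_P2090045, bases 1 to 30, chr2:116998491-116998550, plus strand): caacctcttcattgtttaatgttctggtct
Dusp7 (A_55_P2000628, bases 31 to 60, chr9:106277943-106278000, plus strand): gacacacacacacatACACATATATATCCC
Dusp7 (A_55_P1993836, bases 1 to 30, chr9:106277985-106278044, plus strand): cACACATATATATCCCgagccagcaacggg

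The Dusp7 probes share 16 genome positions and lie partly in a run of CA and TA repeats, so they are not independent readings of that gene. The starts of the 3 Spred1 probes lie between 954 and 7415 bases apart. The share of G and C over the 60 bases was 55% for Dusp5, 45% for Dusp4 and Dusp6, and 20% to 40% for the other 10 probes. Exon and UTR positions were not analysed here.

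After 4 h of FGF23, none of the 10 genes differed between the conditions by limma's test. All 12 measured probes had mean ratios between 0.915-fold (Dusp5) and 1.09-fold (Il17rd). Under the main processing (offset of 50, then loess), every 95% interval held a ratio of 1. Together these intervals reached from 0.805-fold to 1.24-fold. The Dusp5 interval excluded 1 with no offset (0.688-fold to 0.975-fold) and with the scanner software's log ratio (0.647-fold to 0.939-fold). With median centring the intervals reached from 0.418-fold to 2.28-fold. The offset compresses ratios of dim probes, so the main bounds do not limit the true change of Dusp5, Spry2 and Spry4. Of all 26941 probes measured, 0.0854% passed at an adjusted p below 0.05, and 0 of the 12 did (higher in 0.0817% of all probes). Ratios past 1.5-fold that pointed the same way on the arrays were seen in 0 of the 12 and in 0.0297% of all probes. At an unadjusted p below 0.05 there were again 0 of 12, against 4.01% of all probes.

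In what follows, a level is a probe's log2 intensity in 1 condition on 1 array after normalization of the dyes, and a ratio is the log2 difference of FGF23 over unstimulated on the same array. Arrays were not scaled to each other, so levels are best read within an array. Whether levels of the conditions overlap was judged across both arrays, which ignores the pairing within an array. A probe's brightness also depends on its sequence, so levels of different probes are not set against each other.

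Dusp6 encodes the cytoplasmic phosphatase that acts most selectively on ERK. Its levels were 11.87 and 11.95 with FGF23 on arrays 1 and 2, against 11.91 and 11.97 in unstimulated cells. FGF23 was slightly lower on both arrays, and the levels of the conditions overlapped. The mean ratio was -0.031 ± 0.016 (SD, n = 2 arrays), with a 95% interval from -0.21 to 0.15 and an adjusted p of 1. The background-subtracted signals, not scaled between dyes or arrays, were 2505 (Cy3, array 1) and 5765 (Cy5, array 2) with FGF23, against 5531 (Cy5, array 1) and 2666 (Cy3, array 2) in unstimulated cells.

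Dusp7 encodes the other cytoplasmic ERK phosphatase of the set. The probe A_55_P1993836 had levels of 8.29 and 8.27 with FGF23, against 8.31 and 8.35 in unstimulated cells, and these did not overlap. Its ratios were -0.015 and -0.078, with a mean of -0.046 ± 0.044 and an interval from -0.23 to 0.14. The overlapping probe A_55_P2000628 had 7.70 and 7.62 with FGF23, against 7.82 and 7.66 in unstimulated cells. Those levels overlapped, and the mean ratio was -0.077 ± 0.054.

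Dusp4 and Dusp5 encode nuclear phosphatases. Dusp4 had levels of 8.36 and 8.43 with FGF23, against 8.41 and 8.32 in unstimulated cells. It was lower with FGF23 on array 1 and higher on array 2, with a mean ratio of 0.032 ± 0.12 and an interval from -0.16 to 0.22. Dusp5 was dim, with levels of 6.53 and 6.41 with FGF23, against 6.70 and 6.50 in unstimulated cells. FGF23 was lower on both arrays, at ratios of -0.17 and -0.086, and the mean was -0.13 ± 0.059 with an interval from -0.31 to 0.057.

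The Dusp5 value depended on how background was treated. Its background-subtracted signals, not scaled between dyes or arrays, were 19.4 (Cy3, array 1) and 35.4 (Cy5, array 2) with FGF23, against 56.5 (Cy5, array 1) and 18.8 (Cy3, array 2) in unstimulated cells. The local backgrounds beside them, at 37 to 44, were above all of these signals except that of unstimulated cells on array 1. With no offset added to the corrected signal the mean ratio was -0.29, with an interval from -0.54 to -0.036. With the scanner software's own log ratio it was -0.36, with an interval from -0.63 to -0.091. The adjusted p from limma was 0.82 and 0.74 under these 2 settings, so Dusp5 passed under neither. On each array alone, the scanner software's p-value was 0.21 and 0.40.

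**Figure D1:**
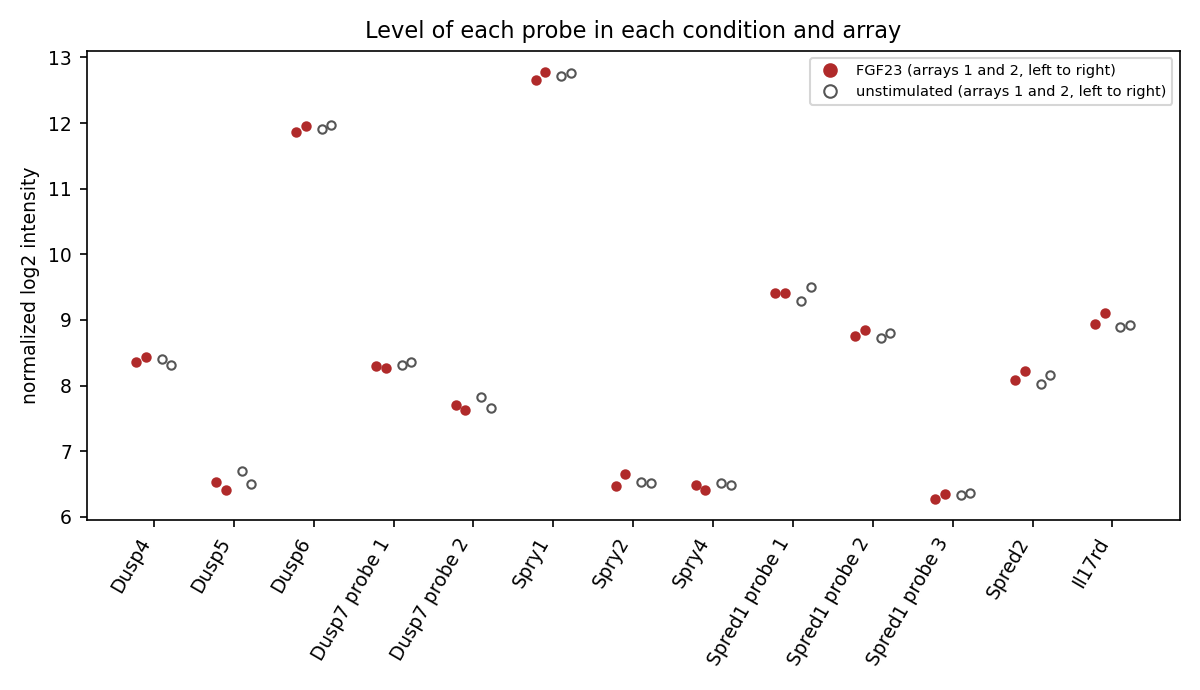
Normalized log2 intensity of each of the 13 probes (y axis), with FGF23 (filled, arrays 1 and 2 from left to right) and without it (open, same order). The 4 values of a probe lie close together, whether the probe is dim, as for Dusp5, Spry2 and Spry4, or bright, as for Dusp6 and Spry1; brightness also depends on the probe, so heights are not comparable between genes.

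Sprouty proteins restrain receptor tyrosine kinase signalling on the way to ERK. Spry1, a bright probe, had levels of 12.66 and 12.78 with FGF23, against 12.72 and 12.76 in unstimulated cells. The conditions overlapped, with 1 array lower and 1 higher with FGF23. The mean ratio was -0.024 ± 0.055, with an interval from -0.21 to 0.16.

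Spry2 and Spry4 were dim, with background-subtracted signals between 15.9 and 53.4 in any channel. Spry2 had levels of 6.48 and 6.65 with FGF23, against 6.53 and 6.51 in unstimulated cells. Its ratios of -0.057 and 0.14 had opposite signs, for a mean of 0.041 ± 0.14. Spry4 had 6.48 and 6.41 with FGF23, against 6.52 and 6.49 in unstimulated cells. These did not overlap, but the mean ratio of -0.063 ± 0.031 had an interval from -0.25 to 0.12. It was -0.15 without an offset and -0.11 with the scanner software's log ratio, and it passed under neither (adjusted p = 0.9999). With the scanner software's log ratio the arrays differed in sign, at 0.0081 on array 1 and -0.24 on array 2.

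Spred proteins are Sprouty relatives that bring the Ras regulator neurofibromin to the membrane. The brightest Spred1 probe, A_55_P2079430, had levels of 9.41 and 9.41 with FGF23, against 9.29 and 9.50 in unstimulated cells. Its ratios of 0.12 and -0.089 had opposite signs, with a mean of 0.015 ± 0.15. The second probe, A_55_P2079425, had 8.76 and 8.84 with FGF23, against 8.72 and 8.81 in unstimulated cells. It was higher with FGF23 by 0.036 on each array, with an interval from -0.15 to 0.22 around the mean.

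The third Spred1 probe, A_55_P2090045, is annotated to another transcript (NM_001277256) than the first and second (NM_033524). It was well above background only in Cy5, that is on 1 of 2 arrays in each condition, and was left out of the test. Its levels were 6.28 and 6.34 with FGF23, against 6.33 and 6.36 in unstimulated cells. Spred2 had levels of 8.09 and 8.23 with FGF23, against 8.03 and 8.16 in unstimulated cells. It was higher with FGF23 on both arrays, by 0.060 ± 0.0083, with an interval from -0.12 to 0.24. That agreement of the arrays depended on processing. Arrays 1 and 2 read 0.13 and -0.0050 with the scanner software's log ratio, and -0.41 and 0.52 with median centring.

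Il17rd had levels of 8.94 and 9.11 with FGF23, against 8.89 and 8.92 in unstimulated cells. The conditions did not overlap, and FGF23 was higher by 0.051 on array 1 and by 0.20 on array 2. The mean ratio of 0.12 ± 0.10 had an interval from -0.064 to 0.31, an unadjusted p of 0.18 and an adjusted p of 1 in limma. This was the largest positive ratio among the 12 probes. Across the processing settings the mean ratio of Il17rd ran from 0.11 to 0.14 and passed under none. The 0.11 came with median centring, where arrays 1 and 2 read -0.52 and 0.74.

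**Figure D2:**
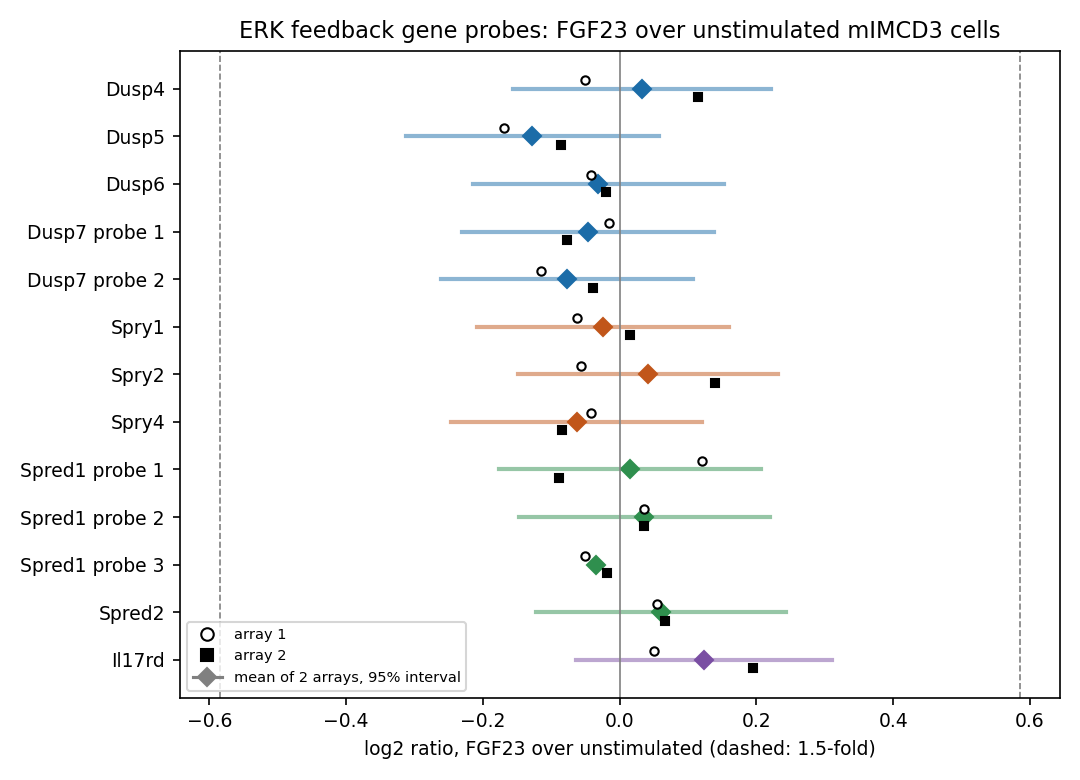
Log2 ratio of FGF23 over unstimulated cells (x axis) for each probe, on array 1 (open circle), array 2 (square) and as their mean (diamond) with its 95% interval from limma; dashed lines mark 1.5-fold. Under the main processing shown, every interval crosses 0 and stays inside the dashed lines. The third Spred1 probe was not tested and has no interval.

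By family, the 5 Dusp probes had a median ratio of -0.046, with 4 below 0 on both arrays and none above on both. The 4 include both Dusp7 probes, which overlap and are not independent. This count depended on processing. With no offset, the Dusp7 probe A_55_P1993836 had 0.011 on array 1. With median centring, Dusp5 alone of the Dusp probes was below 0 on both arrays. The 3 Sprouty probes had a median of -0.024, with 1 (Spry4) below 0 on both arrays, though not with the scanner software's log ratio. The 3 measured Spred probes had a median of 0.036, with 2 above 0 on both arrays, and Il17rd was above 0 on both. These counts depended on processing too. With the scanner software's log ratio, Spred2 (0.13 and -0.0050) and Spred1 A_55_P2079425 (0.065 and -0.017) had opposite signs on the arrays. With median centring, Il17rd and all 3 Spred probes had opposite signs. No test compares the families, and the interval of every probe overlapped that of every other, since the highest lower bound was -0.064 and the lowest upper bound was 0.057.

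The median ratio of all 12 probes was -0.0042 (-0.042 for array 1 alone and -0.0024 for array 2 alone), beside -0.0027 over all measured probes. Of the 12, 5 were below 0 on both arrays (23.5% of all probes) and 3 above 0 on both (23.4%). The remaining 4 had opposite signs on the arrays, as had 53.1% of all probes. In 3 of the 12 the levels of the conditions did not overlap, against 28.5% of all probes. FGF23 was the lower condition in 2 of them (13.9% of all probes) and the higher in 1 (14.6%). Overlap says little about FGF23, since offsets between arrays enter it. Spred2, for example, overlapped although it was higher on both arrays, by 0.054 and 0.066. The median SD between arrays was 0.055 for the 12 probes and 0.087 for all probes. The Cy5 over Cy3 ratios of the 12, averaged over the arrays, ran from -0.10 to 0.098. With 1 array per dye orientation, a dye effect and array-to-array noise cannot be told apart in these values.

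**Figure D3:**
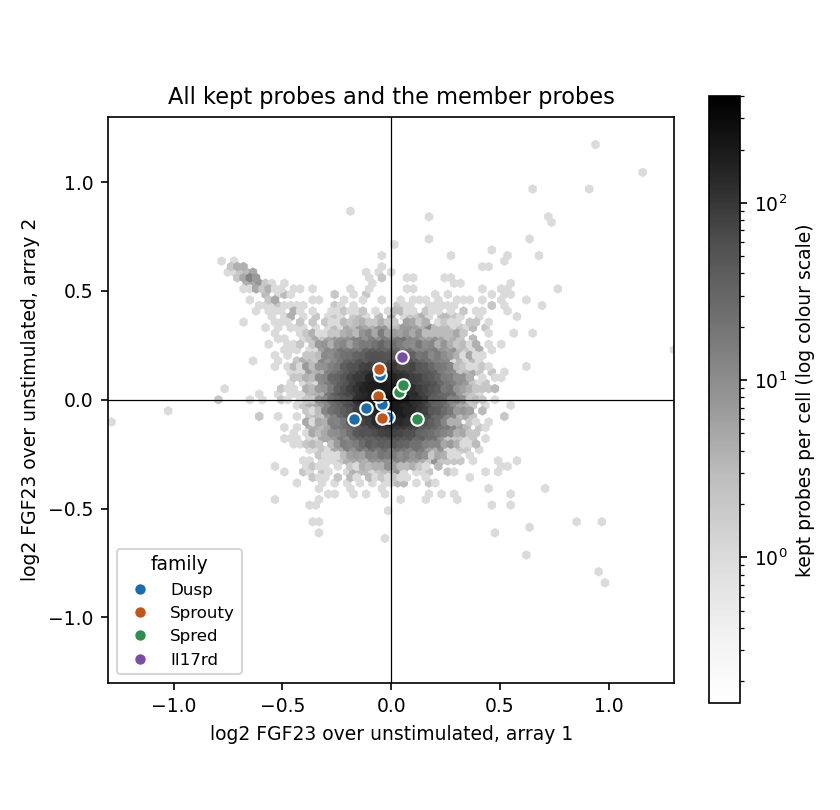
Log2 ratio of FGF23 over unstimulated on array 1 (x axis) against array 2 (y axis), with grey shading for the number of kept probes and coloured points for the 12 measured probes of the 4 families. The coloured points lie within the dense centre, and 26939 of 26941 probes fall inside the plot. The Pearson correlation of the arrays over the kept probes was -0.10.

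Dim probes could show less of a change. At each probe's own brightness and with the offset of 50, a doubled signal would move the ratio by 0.991 for Dusp6 and 0.995 for Spry1. It would move it by 0.55 for Dusp5, 0.56 for Spry2 and 0.53 for Spry4, and by 0.82 to 0.95 for the other 7 measured probes. Spike-in ratios were also compressed, with slopes of observed on expected log ratio of 0.851 and 0.852 per the file headers. The mean ratio of the bright Dusp6 probe was -0.045 to -0.031 when processed otherwise. With no offset it was -0.033, and with the scanner software's log ratio -0.032. The -0.045 came with median centring, where arrays 1 and 2 read -0.75 and 0.66. There the interval ran from -1.12 to 1.03, so only the mean was similar.

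**Figure D4:**
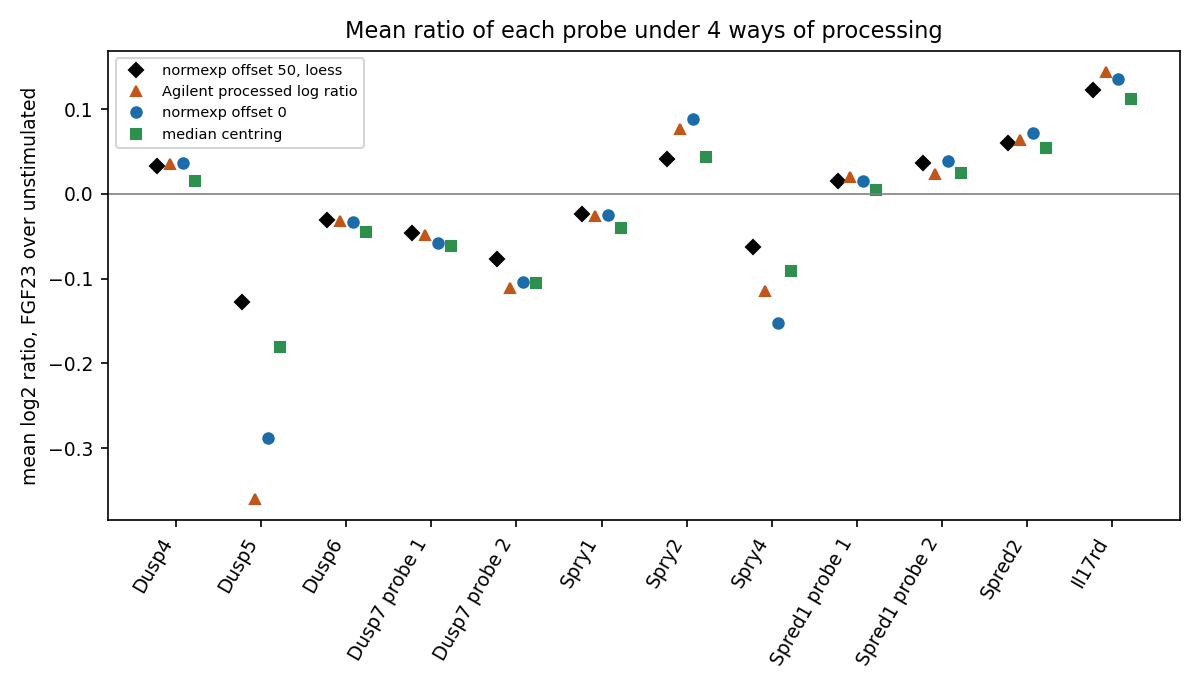
Mean log2 ratio of FGF23 over unstimulated (y axis) of the 12 measured probes under 4 ways of processing. Most probes differ little between settings, whereas the dim Dusp5 probe ranges from -0.36 to -0.13 and Spry4 from -0.15 to -0.063.

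Other genes of the pathway were described by lists, with a gene represented by its brightest measured probe. All 6 other dual-specificity MAP kinase phosphatase genes were measured and 0 passed in either direction (0 also at an unadjusted p below 0.05). Their median ratio was -0.078, with -0.10 for array 1 and 0.016 for array 2. Dusp8, which encodes a phosphatase of stress-activated MAP kinases, had -0.13 ± 0.0011, although its second, dimmer probe had -0.020. Dusp2, which encodes a nuclear phosphatase, had -0.13 ± 0.11. Among atypical dual-specificity phosphatases, 9 of 10 were measured and 0 passed (0 also unadjusted), with a median of 0.014. Dusp12 had -0.091 ± 0.14, and Dusp22 -0.078 ± 0.053 with a second probe at -0.0017.

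Of 18 other inhibitors of Ras and ERK signalling, 16 were measured, and the relatives Spry3 and Spred3 were too dim to be measured. None of the 16 passed, and 0 had an unadjusted p below 0.05. The median was 0.068, at 0.067 on array 1 and 0.031 on array 2. Rasa3, a Ras GTPase-activating protein gene, had -0.18 ± 0.010, with -0.11 at a second, dim probe.

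Of 31 receptor-to-ERK cascade genes on the array, 27 were measured, and the co-receptor genes Kl and Klb were among the 4 that were not. None passed, and the median was -0.0018. At an unadjusted p below 0.05 in limma, 1 of the 27 was lower and none was higher, against 4.01% of all probes in either direction (1.5% lower). That gene was Rras2, a Ras-family GTPase, at -0.20 ± 0.054. The Ras activator gene Sos2 had 0.16 ± 0.095. The 4 FGF receptor genes had ratios between -0.084 (Fgfr3) and 0.052 (Fgfr4) at their brightest probes. Dimmer probes had -0.066 and 0.14 for Fgfr1 and 0.048 for Fgfr2.

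The 18 other ERK output genes, all measured, had a lower median, -0.16, at -0.17 on each array. Of these, 12 were below 0 on both arrays, against 5 of the 12 feedback probes and 23.5% of all probes. The cyclin gene Ccnd1 fell, with levels of 10.66 and 10.79 with FGF23, against 11.19 and 11.24 in unstimulated cells. Its ratio was -0.49 ± 0.050 with an adjusted p of 0.043 in limma. Among all 26941 probes 22 passed as higher, and the Ccnd1 probe alone passed as lower (0.00371%). That call was lost with 1 test per gene on the brightest probe (0.073), with no offset (0.405), with the scanner software's log ratio (0.66) and with median centring (1), over a range from 0.0013 to 1 for all 8 alternatives. The mean ratio stayed between -0.51 and -0.49 under all 8, though changes of probe choice or prior could not move it.

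At an unadjusted p below 0.05, 8 of these 18 output genes were lower and 1 was higher, against 1.5% and 2.51% of all probes. The higher gene was the immediate-early factor gene Egr1, at 0.26 ± 0.21. After Ccnd1 the lowest ratios were those of the ETS factor gene Etv4 (-0.47 ± 0.19, adjusted p = 0.081) and the AP-1 gene Fosl1 (-0.34 ± 0.0047, adjusted p = 0.36). The second, dimmer Etv4 probe also had -0.47. Across the processing settings, 0 to 2 of the 18 output genes passed limma's test, all of them lower. Egr1, Etv4 and Fosl1 were named after their values were seen, and no test compared this list with the feedback genes.

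**Figure D5:**
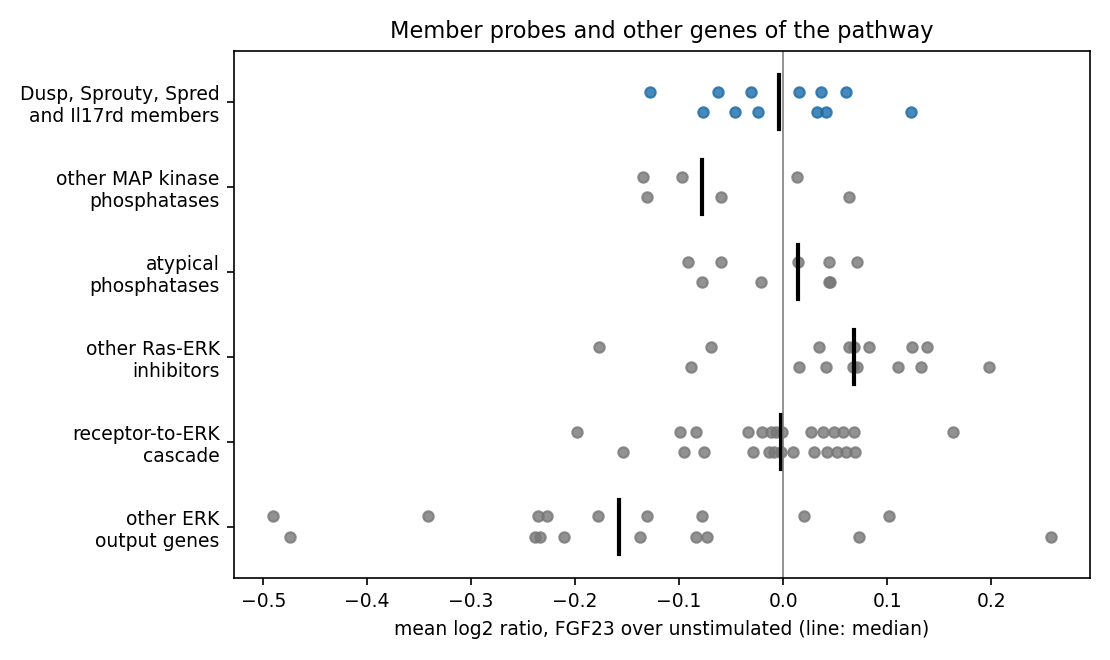
Mean log2 ratio of FGF23 over unstimulated (x axis) for the 12 measured probes of the Dusp, Sprouty, Spred and Il17rd genes and for the genes of 5 pathway lists (1 point each), with the median of each group as a black line. The feedback probes lie between -0.13 and 0.12 around 0, whereas the median of the other ERK output genes is -0.16.

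Across the series, each array had 59305 spots that were not controls, of which 48.2% to 55.2% were well above background in either dye and 0 were saturated. None of the spots of the 10 genes carried an outlier flag. Of 18 collecting duct and tubule epithelium markers 16 were measured, Aqp3 and Avpr2 not among them. Measured markers of other cell types numbered 4 of 6 for proximal tubule, 1 of 7 for fibroblasts, 3 of 5 on the array for macrophages and 2 of 5 for endothelium, and none of any list passed.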

How the data were processed

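Total RNA of mIMCD3 cells with and without FGF23 was measured on 2 dye-swapped Agilent arrays. Per the file headers, the authors' deposited files came from Feature Extraction 11.5.1.1. They give each spot's mean, local background and background-subtracted intensity in both dyes, on the scanner's linear scale. They also hold a log10 ratio of Cy5 over Cy3, background-subtracted and dye-normalized by the scanner software, with its error and its p-value, and 0 or 1 flags, all per the file headers. Probe positions are on mm9.

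Mean intensities were corrected with normexp (offset 50), normalized by loess within each array with controls at weight 0, and expressed as FGF23 over unstimulated. Spots flagged as outliers and controls were dropped. Probes well above background on both arrays in at least 1 condition were kept (26941 of 55681). limma 3.58.1 (R 4.3.3) tested all of them with lmFit and eBayes, with Benjamini-Hochberg adjustment and a threshold of 0.05. The fit had 1 residual degree of freedom, and the spread of a probe was drawn towards a shared value with 15.3 degrees of freedom. P-values and 95% intervals thus rest mostly on that shared spread, not on the printed SD. No dye term was fitted. The test was checked on simulated ratios. The number of arrays limits the precision.

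In all, 8 processing alternatives and each array alone were tried. All probes of the 10 genes were named; from each list, up to 4 genes past the test, or the 2 with the largest ratio where none passed. Receptor and klotho genes and second probes were added after their values were seen. Members and lists were chosen with earlier results of these data known. A gene that this rule names is not reported here. Gene names are those of the array.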

Additional observations from a re-analysis of the deposited data

How the results depend on the processing

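None of the 12 probes of the Dusp, Sprouty, Spred and Il17rd genes passed under any of the 8 processing alternatives. The lowest adjusted p in limma was 0.74 (Dusp5). The 94 values ran from -0.36 to 0.14 and all kept their sign. However, changing which probes were kept, which probe stood for a gene, or the prior left each ratio as it was. Those signs could not change. Averaging the probes of a gene altered only Dusp7 and Spred1. Only Agilent's processed log ratio, no offset and median centring recomputed the ratio of every probe. With median centring 2 probes, against 5 with loess, were below 0 on both arrays, and 0, against 3, were above 0 on both. With Agilent's processed log ratio 4 were below 0 on both arrays and 1 was above. The median ratio of the 12 probes was -0.042 to -0.0024 on single arrays. The count over all probes was 23. It was 0 with Agilent's processed log ratio, 7 with no offset, 0 with median centring, 10 with the brightest probe per gene and 56 with a prior that was robust and followed intensity; the cause was not tested. Of the other values, 4 for Ccnd1 lost the threshold, and 14 medians and 5 list counts moved while 46 and 35 did not. Low signal limits Dusp5, Spry2 and Spry4. Each array pairs both conditions in its ratio, so the fit on ratios is already paired and no further block was fitted.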
